A study of Mus musculus with 6 samples.

Results

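The p53 targets and BCL2 family genes examined here were Trp53, Cdkn1a, Mdm2, Ccng1, Sesn1, Bax, Bbc3, Bcl2, Bcl2l1 and Mcl1, a set of 10 genes chosen as a readout of cell death after cadmium. Measured were all probes whose platform symbol was one of these names, 29 of the 45281 probes. Trp53 and Bax had no probe under their symbols in the annotation used here and so have no value. The other 8 genes, of 19057 named on the arrays, had between 1 and 9 probes each, and 22 of the 29 probes were detected on at least 2 of the 6 arrays and were tested among 18960 probes in all.

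The study measured spleen RNA of ICR mice 24 h after 1 subcutaneous injection, given at 28 days of age, on Illumina bead arrays. The 3 groups of 2 arrays received saline only, or cadmium chloride in 200 µL of saline at either 5 or 10 µmol/kg body weight. The labels give 7 to 8 animals per dose and do not say whether an array held RNA of 1 animal or of several. Errors and p-values therefore cover array-to-array spread alone, and that spread may be technical.

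The p53 protein, the product of Trp53, is a transcription factor that accumulates when DNA is damaged or a cell is otherwise stressed. It raises transcription of genes that halt the cell cycle, such as Cdkn1a, of its own inhibitor Mdm2, and of genes that start cell death, such as Bax and Bbc3. The BCL2 family sets whether the mitochondrial outer membrane is opened during that death. BCL2, BCL-XL (from Bcl2l1) and MCL1 keep it closed, BAX, BAK and BOK open it, and the BH3-only proteins such as PUMA (from Bbc3) act against the first kind. In the spleen these proteins govern the survival of lymphocytes, granulocytes and red cell precursors.

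The p53 half-site is the motif of 10 letters that p53 binds in pairs. Because part of this set is grouped as p53 targets, promoter stretches with this motif are shown here, with the motif in capitals. They come from RefSeq promoters of the mouse build GRCm38.p6, each reaching from 250 bases before to 50 bases after a gene's start, and read 5′ to 3′ along the gene's strand with 25 bases on each side of the motif. The 4 genes shown are the p53 targets with array values and a match.
Cdkn1a, chr17:29090881-29090962, plus strand: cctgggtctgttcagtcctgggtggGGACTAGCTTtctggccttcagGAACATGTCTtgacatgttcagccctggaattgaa
Mdm2, chr10:117710910-117710969, minus strand: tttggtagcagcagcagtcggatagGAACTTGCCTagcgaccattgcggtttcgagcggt
Ccng1, chr11:40755437-40755496, minus strand: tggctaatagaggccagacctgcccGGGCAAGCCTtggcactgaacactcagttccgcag
Sesn1, chr10:41887241-41887300, plus strand: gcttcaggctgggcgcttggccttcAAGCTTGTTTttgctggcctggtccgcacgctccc

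The stretch of Cdkn1a held 2 exact matches to the half-site with 12 bases between them, and those of Mdm2, Ccng1 and Sesn1 held 1 each. Only exact matches were searched, so a half-site with a mismatched letter is not in capitals. Which half-sites p53 binds together was not tested. Cdkn1a and Sesn1 each also had a window at another start, chr17:29093519-29093818 and chr10:41810324-41810623, without the motif. Over the 10 genes there were 16 such promoter windows, since some genes have several starts, and 6 of the 16 held the motif, against 8.36% of the 32851 mouse promoter windows. The motif was also found in the windows of Trp53 and Bax, and not in those of Bbc3, Bcl2, Bcl2l1 and Mcl1. The metal response element core TGCGCNC, searched on both strands, was found in 4 of the 16 windows (Mdm2, a pair of Bbc3 windows and a Bcl2l1 window), against 15.4% of all windows. Its other form, TGCACNC, was found in none of the 16 windows, against 12.6% of all windows. No metal response element match overlapped a p53 half-site in these windows. A match shows only that the letters are present, and these promoters were not tested for binding here.

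The deposited signals of the 6 arrays already shared nearly the same distribution, and 16265 to 18561 probes per array were detected (detection p-value under 0.05). The spleen genes Cd79b, Ms4a1, Cd3e, Spic and Slc4a1 were detected on all 6 arrays. Genes of pancreatic acinar cells separated the arrays across the dose groups: their mean log2 signal was 4.83 on array 1 of the saline group and 5.06 on array 1 of the 10 µmol/kg group, with 7 and 11 of the 22 genes detected. On the other 4 arrays it lay between 11.71 and 13.04, with all 22 detected. For the tested member probes the gap between the 2 arrays of a group had a median of 0.60 on the log2 scale in saline, 0.26 at 5 µmol/kg and 0.50 at 10 µmol/kg, against 0.36, 0.23 and 0.36 over all tested probes. The smallest p that an exact permutation of 2 arrays against 2 can give is 0.333, so each test below comes from the limma fit over all probes.

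No member probe passed an adjusted p of 0.05 in any comparison. At 5 µmol/kg against saline, 0 of the 22 member probes were called, where 0% of all tested probes were called, and 1 of 22 (Mcl1, lower) had an unadjusted p under 0.05, where 9.99% of all did. The 2 arrays at 5 µmol/kg both lay above the 2 saline arrays for 2 member probes, where 24.2% of all tested probes did so, and both below for 5 member probes, where 24.1% did so. The median difference over the 22 probes was 0.11 on the log2 scale, with a range of −1.51 to 0.63, against a median of 0.01 over all tested probes, and the smallest adjusted p in limma was 0.492.

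At 10 µmol/kg against saline, 0 of 22 member probes were called, again with 0% called over all probes, and 0 of 22 had an unadjusted p under 0.05, where 1.6% of all did. Both arrays at 10 µmol/kg lay above both saline arrays for 1 member probe (a Cdkn1a probe), where 12.1% of all tested probes did so, and below for 1 (a Bcl2 probe), where 10.9% did so. The median difference was 0.10, the range −0.44 to 1.13, and the adjusted p in limma was 1 for every member probe. These shares of member probes set apart from saline were no larger than those of all probes at either dose.

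Between the doses, 10 µmol/kg against 5 µmol/kg, 0 of 22 member probes were called, where 0.00527% of all probes (1 probe, of Tmem14c) were, and 1 of 22 (Mcl1, higher) had an unadjusted p under 0.05, where 1.03% of all did. The groups did not overlap for 4 member probes higher at 10 µmol/kg, where 14.6% of all probes were so placed, and for 3 lower, where 15.9% were. The median difference was 0.06 and the range −0.63 to 1.06. A 95% interval of a difference reached a median of 0.69 to either side over all tested probes. Most member probes had wider intervals. At 5 µmol/kg against saline the interval was −0.86 to 0.87 for the brightest Mdm2 probe. For the Bcl2 probe ILMN_2682162 it was −3.12 to 0.11. With 2 arrays a group, differences within such intervals are left unresolved. In a whole spleen, fewer cells of a type and less RNA per cell cannot be told apart.

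**Figure D1:**
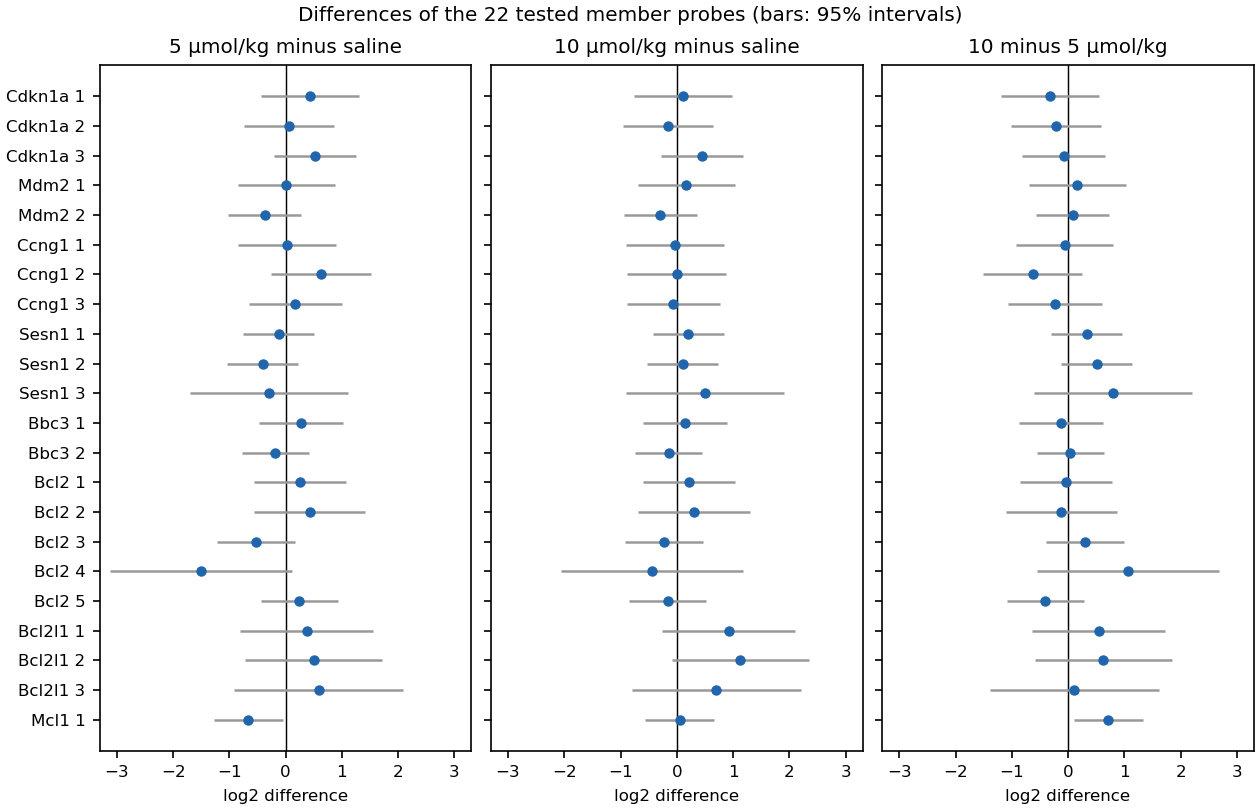
Log2 differences (points) with 95% intervals (bars) of the 22 tested member probes in the 3 comparisons, 5 µmol/kg minus saline, 10 µmol/kg minus saline and 10 minus 5 µmol/kg; probes of a gene are numbered from the brightest. Mcl1 alone has intervals that do not reach 0, from −1.28 to −0.05 at 5 µmol/kg against saline and from 0.10 to 1.33 between the doses, and neither passed after adjustment.

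Cdkn1a encodes p21, the inhibitor of cyclin-dependent kinases through which p53 halts the cell cycle. Its brightest probe gave signals of 121.5 and 255.6 on the saline arrays, 281.7 and 211.6 at 5 µmol/kg, and 184.8 and 199.5 at 10 µmol/kg. All 4 cadmium arrays lay between or just above the saline arrays, which were themselves apart by more than any treated pair. The difference was 0.43 ± 0.36 (SE of the log2 difference, n = 2 arrays a group) at 5 µmol/kg and 0.11 ± 0.36 at 10 µmol/kg. As a fold, the higher dose gave 1.08 on this probe, with a 95% interval of 0.591 to 1.96. The lower dose gave 1.35, with an interval of 0.740 to 2.46. An induction above 1.96 thus lies outside the interval for this probe at the higher dose alone. Both arrays at 10 µmol/kg were below both at 5 µmol/kg (−0.32 ± 0.36).

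The other Cdkn1a probes were dimmer and did not all follow the first. Probe ILMN_2846776 read 23.2 and 32.2 in saline, 60.9 and 34.4 at 5 µmol/kg, and 51.3 and 35.5 at 10 µmol/kg, and every cadmium array was above every saline array. Its differences were 0.52 ± 0.31 at 5 µmol/kg and 0.44 ± 0.31 at 10 µmol/kg, with adjusted p of 0.547 and 1 in limma. Probe ILMN_2846775 read 37.8 and 80.3 in saline, 64.6 and 53.3 at 5 µmol/kg, and 41.6 and 55.8 at 10 µmol/kg, with all cadmium arrays inside the saline pair.

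Mdm2 encodes the ubiquitin ligase that marks p53 for degradation and is itself switched on by p53. Its brightest probe read 755.7 and 393.6 in saline, 525.2 and 574.1 at 5 µmol/kg, and 740.1 and 512.8 at 10 µmol/kg, so that the saline arrays enclosed all others. The differences were 0.01 ± 0.36 at 5 µmol/kg and 0.17 ± 0.36 at 10 µmol/kg. A second probe, ILMN_1250774, read 697.2 and 489.6 in saline, 435.9 and 459.1 at 5 µmol/kg, and 528.5 and 425.9 at 10 µmol/kg. On it both arrays at 5 µmol/kg were below saline (−0.37 ± 0.27), the opposite side from the first probe, and the 10 µmol/kg arrays overlapped saline (−0.29 ± 0.27). The last Mdm2 probe was not detected on any array.

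Ccng1 encodes cyclin G1, a p53 target that acts on MDM2 through a phosphatase. Its brightest probe read 277.8 and 331.9 in saline, 311.9 and 307.6 at 5 µmol/kg, and 201.8 and 430.8 at 10 µmol/kg. The 5 µmol/kg arrays fell inside the saline pair and the 10 µmol/kg arrays on either side of it, with differences of 0.03 ± 0.36 and −0.04 ± 0.36. Probe ILMN_2710229 read 51.7 and 94.4 in saline, 135.5 and 101.3 at 5 µmol/kg, and 50.7 and 95.6 at 10 µmol/kg. There the lower dose lay above saline (0.63 ± 0.37) and above the higher dose, while the higher dose nearly matched saline array by array. The dimmest Ccng1 probe, ILMN_2702233, ranged from 22.2 to 53.1 with overlapping groups in every comparison.

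Sesn1 encodes sestrin 1, a stress-induced protein that restrains growth signalling through mTORC1. It gave 2731.6 and 2047.1 on the saline arrays, 1947.2 and 2412.0 at 5 µmol/kg, and 2904.2 and 2565.2 at 10 µmol/kg with its brightest probe. Both arrays at 10 µmol/kg were above both at 5 µmol/kg, by 0.33 ± 0.27, and overlapped saline (0.21 ± 0.27). All 3 Sesn1 probes placed the doses in this order, with differences between the doses of 0.51 ± 0.26 for ILMN_3136744 and 0.80 ± 0.59 for ILMN_3059476, and none passed the test (adjusted p of 0.98 in limma for each). Probe ILMN_3136744 read 1392.0 and 985.8 in saline, 830.0 and 934.3 at 5 µmol/kg, and 1309.5 and 1211.1 at 10 µmol/kg, and on it both arrays at 5 µmol/kg were below saline (−0.41 ± 0.26). Probe ILMN_3059476 read 144.8 and 36.6 in saline, 59.1 and 58.8 at 5 µmol/kg, and 179.4 and 70.5 at 10 µmol/kg, with its 2 highest values on the arrays with dim acinar genes.

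Bbc3 encodes PUMA, the BH3-only protein through which p53 starts cell death in lymphocytes. Its brightest probe read 145.7 and 211.8 in saline, 193.6 and 240.5 at 5 µmol/kg, and 156.5 and 245.3 at 10 µmol/kg. The groups overlapped, with differences of 0.27 ± 0.32 at 5 µmol/kg and 0.15 ± 0.32 at 10 µmol/kg. At 5 µmol/kg the difference was 0.03 without array 1 of saline and 0.52 without array 2 of saline, and 0.06 ± 0.25 with the acinar covariate. A dim probe, ILMN_2690620, ranged from 15.6 to 26.7 and lay on the other side of 0 at both doses (−0.18 ± 0.25 and −0.14 ± 0.25). The last Bbc3 probe was detected on 1 saline array.

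**Figure D2:**
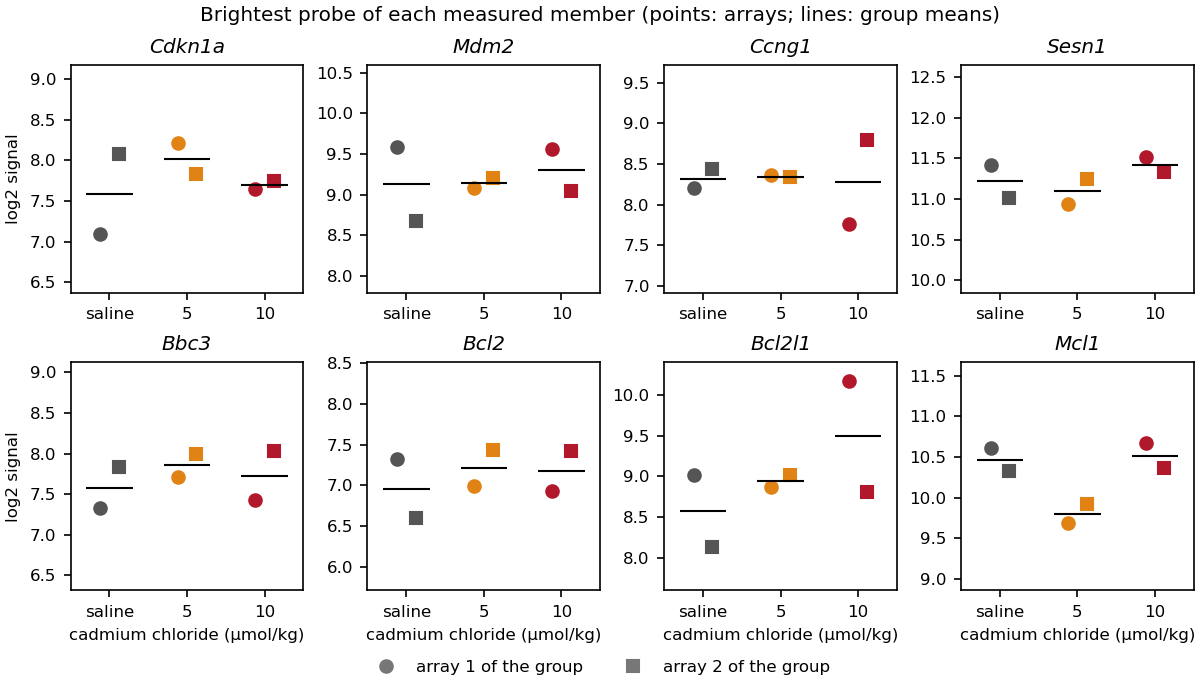
Log2 signal of the brightest probe of each of the 8 measured genes (vertical axis, a span of the same size in every panel) for saline, 5 and 10 µmol/kg (horizontal axis); circles are array 1 and squares array 2 of each group, and lines are group means. Both 5 µmol/kg points of Mcl1 lie below the other 4, and the Bcl2l1 point of array 1 at 10 µmol/kg stands above all other Bcl2l1 points.

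Mcl1, a short-lived pro-survival protein on which lymphocytes and granulocytes depend, was the member whose groups differed most relative to the spread between arrays. Its single probe read 1552.4 and 1267.3 in saline, 808.9 and 955.3 at 5 µmol/kg, and 1619.1 and 1301.8 at 10 µmol/kg. Both arrays at 5 µmol/kg were below all other arrays, and the saline and 10 µmol/kg arrays overlapped. The difference was −0.66 ± 0.26 at 5 µmol/kg against saline, with a 95% interval of −1.28 to −0.05 and an adjusted p of 0.492 in limma. Between the doses it was 0.71 ± 0.26, with an interval of 0.10 to 1.33 and an adjusted p of 0.98. At 10 µmol/kg against saline it was 0.05 ± 0.26. The first 2 comparisons share the 5 µmol/kg arrays and are not separate evidence.

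Mcl1 was also highest on the 2 arrays with dim acinar genes, one in saline and one at 10 µmol/kg. Against the saline array with dim acinar genes the mean at 5 µmol/kg differed by −0.81, and against the saline array with bright acinar genes by −0.52, so it was lower than either. The 10 µmol/kg array with bright acinar genes was 0.56 above the 5 µmol/kg mean. With the acinar level as a covariate the difference was −0.54 ± 0.23 at 5 µmol/kg against saline (adjusted p of 0.436 in limma) and 0.58 ± 0.23 between the doses (adjusted p of 1).

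Bcl2l1 encodes BCL-XL, the pro-survival protein that red cell precursors and platelets rely on. Its brightest probe gave 501.4 and 264.0 in saline, 450.9 and 502.8 at 5 µmol/kg, and 1137.9 and 432.2 at 10 µmol/kg. Array 1 at 10 µmol/kg exceeded every other array, while array 2 of that group lay inside the saline pair. The difference at 10 µmol/kg was 0.92 ± 0.50 with an interval of −0.26 to 2.10. It was 1.60 without array 2 of that group and 0.24 without array 1, and 1.36 without array 1 of saline and 0.48 without array 2 of saline. Its size thus moved with each of these 4 arrays, and it stayed above 0. With the acinar level as a covariate it was 0.90 ± 0.24, with an adjusted p of 0.813 in limma. At 5 µmol/kg the difference was 0.37 ± 0.50 and the groups overlapped. With the acinar covariate it was 0.83 ± 0.25 (adjusted p of 0.373 in limma), and the difference between the doses was 0.06 ± 0.26 in place of 0.55 ± 0.50.

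The other detected Bcl2l1 probes had the same array on top. Probe ILMN_2647885 read 63.5 and 27.5 in saline, 80.7 and 55.4 at 5 µmol/kg, and 190.8 and 63.4 at 10 µmol/kg, a difference of 1.13 ± 0.51 at the higher dose and the highest of any member probe there. Probe ILMN_2742557 read 33.1 and 5.6 in saline, 48.4 and 25.3 at 5 µmol/kg, and 87.3 and 13.6 at 10 µmol/kg, and was detected on 5 of the 6 arrays. The saline array with bright acinar genes was the lowest array on all 3 probes. Signals of the 14 tested erythroid genes were summed. The sums were 68870 and 68900 on the saline arrays, 67390 and 66560 at 5 µmol/kg, and 78390 and 57090 at 10 µmol/kg. The array with the highest Bcl2l1 thus also had the highest erythroid sum. By mean log2 signal of the tested erythroid genes that array was second, at 11.04, after array 1 at 5 µmol/kg, at 11.1, and saline array 1 was lowest, at 10.37. The part of erythroid cells in the Bcl2l1 signal was not tested. The last Bcl2l1 probe was detected on 1 saline array.

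Bcl2, the founding member of its family and a survival factor of resting lymphocytes, had 9 probes, of which 5 were tested. The brightest read 143.7 and 81.1 in saline, 111.8 and 157.0 at 5 µmol/kg, and 105.9 and 155.3 at 10 µmol/kg. Differences were 0.26 ± 0.35 and 0.22 ± 0.35 at the lower and the higher dose, with overlapping groups. A second probe, ILMN_2706514, read 76.3 and 31.7 in saline, 66.5 and 80.0 at 5 µmol/kg, and 45.1 and 94.2 at 10 µmol/kg, again with overlap (0.43 ± 0.42 and 0.31 ± 0.42).

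Of the 3 remaining tested Bcl2 probes, 2 lay below 0 at 5 µmol/kg and all 3 at 10 µmol/kg. Probe ILMN_1249021 read 62.0 and 71.2 in saline, 29.7 and 55.6 at 5 µmol/kg, and 49.9 and 59.2 at 10 µmol/kg, so that every cadmium array was below every saline array (−0.53 ± 0.29 and −0.23 ± 0.29). Probe ILMN_2682162 read 161.3 and 47.3 in saline, 12.8 and 32.1 at 5 µmol/kg, and 123.8 and 27.5 at 10 µmol/kg. Its difference of −1.51 ± 0.68 at 5 µmol/kg was the lowest of any member probe, with an interval of −3.12 to 0.11. Its 2 high values fell on the arrays with dim acinar genes, in different dose groups. Against the saline array with bright acinar genes alone, the 5 µmol/kg mean differed by −0.76.

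Probe ILMN_2597567 was detected on 1 saline array and 1 array at 5 µmol/kg, and on no array at 10 µmol/kg. Its difference between the doses was −0.41 ± 0.29, with an interval of −1.09 to 0.28. The 4 untested Bcl2 probes were detected on at most 1 array each. Over the 5 tested Bcl2 probes, 3 lay above 0 and 2 below at 5 µmol/kg, and 2 above and 3 below at 10 µmol/kg, so the probes of this gene did not share a direction. Signals of the 10 tested B cell genes summed to 13140 and 8280 in saline and to 5884 and 8509 at 5 µmol/kg. At 10 µmol/kg they summed to 8766 and 8200. Of the 5 tested Bcl2 probes, only ILMN_2682162 was also highest on saline array 1. The part of B cell content in the Bcl2 probes was not tested.

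**Figure D3:**
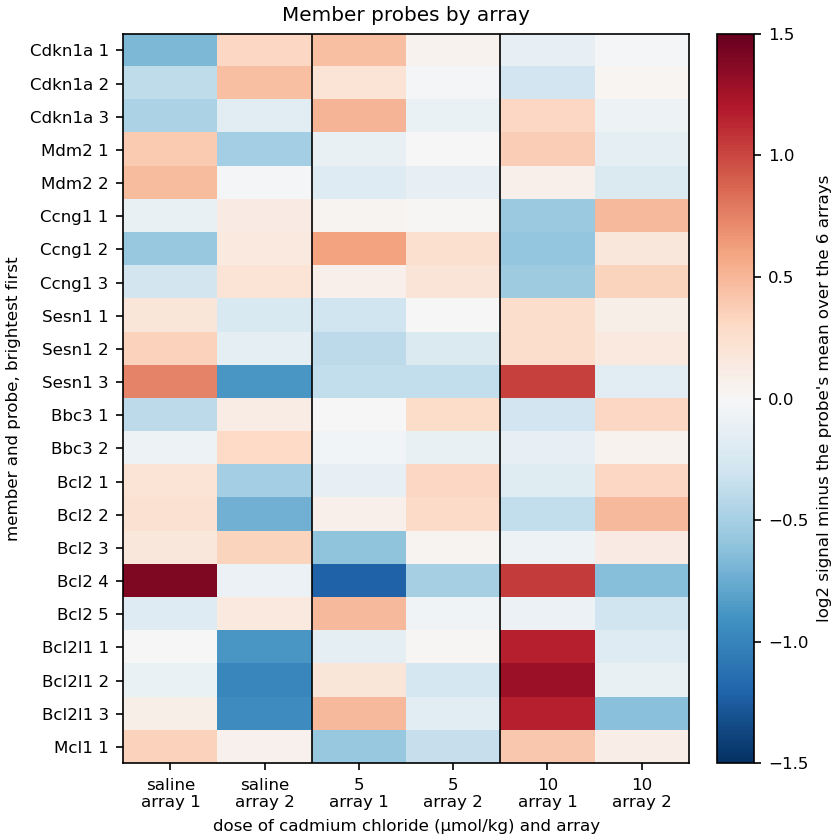
Log2 signal of each of the 22 tested member probes (rows, numbered from the brightest of a gene) minus its mean over the 6 arrays (columns, by dose in µmol/kg), red above and blue below the mean. Array 1 of saline and array 1 of 10 µmol/kg are both blue in the 3 Ccng1 rows and both red in the 3 Sesn1 and 2 Mdm2 rows, and all Bcl2l1 rows are reddest on array 1 of 10 µmol/kg.

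Member signals also differed along the split of the arrays by acinar genes. For 13 of the 22 member probes, both arrays with dim acinar genes lay outside the range of the other 4 arrays. They were above it for 7 probes, both of Mdm2, all 3 of Sesn1, the Bcl2 probe ILMN_2682162 and Mcl1. They were below it for 6, namely 2 of Cdkn1a, all 3 of Ccng1 and the brightest of Bbc3. Over all tested probes 19.17% lay above and 17.35% below in this way. These 2 arrays come from different dose groups, and the source of this arrangement was not tested.

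Comparing like with like on this point, array 1 at 10 µmol/kg was compared with array 1 of saline and array 2 with array 2. For Cdkn1a these differences were 0.55 and −0.33, for Mdm2 −0.03 and 0.37, and for Ccng1 −0.43 and 0.36. The direction thus turned between the pairs for these p53 targets. For Sesn1 they were 0.09 and 0.32, and for Bbc3 0.09 and 0.20. For Bcl2 they were −0.39 and 0.82, for Bcl2l1 1.16 and 0.68, and for Mcl1 0.06 and 0.04. Bcl2l1 was therefore higher at 10 µmol/kg in both pairings, although its groups overlapped.

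The 8 brightest probes formed no common profile. The nearest pair was Mdm2 and Sesn1, with a root mean square difference of 0.196 between their centred log2 profiles over the 6 arrays, and the farthest was Ccng1 and Bcl2l1, at 0.864. Among 8114 other genes detected on all arrays, the 3 nearest to Cdkn1a were Pla2g12a at 0.0465, Nsmce2 at 0.0491 and D030056L22Rik at 0.0512, where the median gene was at 0.418. Pla2g12a read 317.1 and 689.1 in saline, 744.1 and 565.1 at 5 µmol/kg, and 461.8 and 508.6 at 10 µmol/kg, with the low saline array 1 that Cdkn1a also showed. None of these 3 is in the lists of p53 targets used here.

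The wider pathway was read from 7 lists holding 71 genes, of which 56 had a tested probe and 48 were not members. None of the 56 was called in any comparison. At 5 µmol/kg against saline 2 of 56 were higher and 2 lower at an unadjusted p under 0.05, where 9.99% of all tested probes had one. At 10 µmol/kg against saline 0 of 56 had one, where 1.6% of all did, and between the doses 1 was higher and 0 lower, where 1.03% of all had one. The listed genes thus stood apart no more often than all probes against saline. The 4 genes at 5 µmol/kg were Gadd45a, Ckap2, Trp53bp1 and Mcl1, each with an adjusted p of 0.492 in limma. The median difference of the 56 genes was 0.03 at 5 µmol/kg and −0.04 at 10 µmol/kg, against −0.01 and −0.02 over 10823 genes.

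Gadd45a, a damage-response gene that p53 and stress kinases both switch on, read 749.1 and 808.9 in saline, 1522.8 and 1271.5 at 5 µmol/kg, and 1061.2 and 1161.2 at 10 µmol/kg. All 4 cadmium arrays were above both saline arrays, with differences of 0.83 ± 0.24 (interval 0.26 to 1.39) and 0.50 ± 0.24 (interval −0.06 to 1.07). Its second probe gave 0.38 ± 0.29 and 0.08 ± 0.29, and each dose overlapped saline on it, while both arrays at 10 µmol/kg were below both at 5 µmol/kg on either probe. Neither probe passed after adjustment.

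Ckap2, a spindle protein of dividing cells that was listed as a p53 target, read 60.2 and 50.7 in saline, 241.2 and 125.4 at 5 µmol/kg, and 82.0 and 128.2 at 10 µmol/kg. Its differences were 1.42 ± 0.36 and 0.74 ± 0.36, and all cadmium arrays were above saline. Proliferation genes gave positive differences at 5 µmol/kg for 13 of 13 tested genes, where 48.65% of all genes did, with a median of 0.57. At 10 µmol/kg 10 of 13 did, where 46.51% of all genes did, with a median of 0.15, and none was called. Their mean log2 signal was 8.096 and 8.962 in saline, 9.456 and 8.965 at 5 µmol/kg, and 8.816 and 8.518 at 10 µmol/kg. It was lowest on array 1 of saline, and array 2 of saline was above both arrays at 10 µmol/kg. The part of dividing cells in the Ckap2 signal was not tested.

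Trp53bp1, a scaffold at DNA breaks that was first found as a partner of p53, read 507.2 and 619.3 in saline, 126.0 and 388.0 at 5 µmol/kg, and 415.1 and 381.0 at 10 µmol/kg. All cadmium arrays were below saline, with differences of −1.27 ± 0.47 and −0.48 ± 0.47. Its second probe overlapped, at −0.44 ± 0.48 and −0.30 ± 0.48. Among the 7 tested p53 regulators the median difference was −0.40 at 5 µmol/kg and −0.24 at 10 µmol/kg. The brightest of them were Usp7, which removes ubiquitin from MDM2 and p53, at −0.53 ± 0.37 and −0.37 ± 0.37, and Hipk2, a kinase that phosphorylates p53, at −0.39 ± 0.28 and −0.28 ± 0.28. The 3 Usp7 probes disagreed, since another gave 0.58 ± 0.26 and 0.46 ± 0.26 with all cadmium arrays above saline. A second Hipk2 probe gave −0.36 ± 0.50 and −0.35 ± 0.50. A dim Hipk2 probe, ILMN_2545445, gave 0.40 ± 0.44 at 5 µmol/kg and −0.15 ± 0.44 at 10 µmol/kg.

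The 17 tested arrest and repair targets had a median difference of 0.05 at 5 µmol/kg, with 11 above 0, and of −0.04 at 10 µmol/kg, with 8 above 0. The 9 tested death targets had medians of 0.19 and 0.03. Their brightest genes were Apaf1, the caspase-activating scaffold, at −0.20 ± 0.28 and −0.18 ± 0.28, and Ei24, an endoplasmic reticulum protein, at 0.46 ± 0.24 and 0.26 ± 0.24. Of the 3 Apaf1 probes, 1 dimmer probe had the opposite sign (0.92 ± 0.35 and 0.45 ± 0.35). A second Ei24 probe gave 0.10 ± 0.27 at either dose, with groups that overlapped saline.

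In the BCL2 family beyond the members, the 2 effectors with a probe were Bok (−0.25 ± 0.34 and −0.09 ± 0.34) and Bak1 (−0.35 ± 0.32 and −0.04 ± 0.32), both with overlapping groups. The 8 BH3-only genes had median differences of 0.21 and 0.07, with 6 of 8 above 0 at either dose. Bcl2l11, which encodes BIM, read 380.5 and 395.8 in saline, 481.5 and 428.5 at 5 µmol/kg, and 382.4 and 450.8 at 10 µmol/kg. The differences from saline were 0.22 ± 0.23 at 5 µmol/kg and 0.09 ± 0.23 at 10 µmol/kg. On a second Bcl2l11 probe, ILMN_2590638, every cadmium array was above every saline array (0.53 ± 0.28 and 0.52 ± 0.28). A dim Bcl2l11 probe, ILMN_1229255, gave 0.08 ± 0.27 and −0.22 ± 0.27. Bid, cleaved by caspase 8 to link death receptors to mitochondria, read 322.8 and 391.0 in saline, 280.2 and 290.5 at 5 µmol/kg, and 195.2 and 306.3 at 10 µmol/kg. It was lower on all cadmium arrays than on either saline array (−0.30 ± 0.29 and −0.51 ± 0.29) and had an adjusted p of 1 in limma at the higher dose.

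The 7 tested pro-survival genes, 3 of them members, had medians of −0.17 and 0.05. The 10 tested caspases and regulators had medians of −0.05 and −0.12. The brightest of these was Birc2, an inhibitor of apoptosis protein, with 1522.0 and 830.7 in saline, 577.7 and 658.4 at 5 µmol/kg, and 1191.0 and 613.3 at 10 µmol/kg. On this probe it was lower at 5 µmol/kg than on either saline array (−0.85 ± 0.41), and its 2 highest values were again on the arrays with dim acinar genes. Dimmer Birc2 probes gave −1.27 ± 0.65 and −0.35 ± 0.24 at 5 µmol/kg. Another dim one, ILMN_2741621, had the opposite sign, at 0.53 ± 0.35 for 5 µmol/kg and 0.50 ± 0.35 for 10 µmol/kg. The second of the brightest genes was Apaf1, given above. Red pulp macrophage genes gave positive differences for 11 of 11 tested genes at 10 µmol/kg, where 46.51% of all genes did, with a median of 0.54 and none called. At 5 µmol/kg 7 of 11 did, where 48.65% of all genes did. Red pulp macrophages take up dying cells, and such uptake was not tested here.

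**Figure D4:**
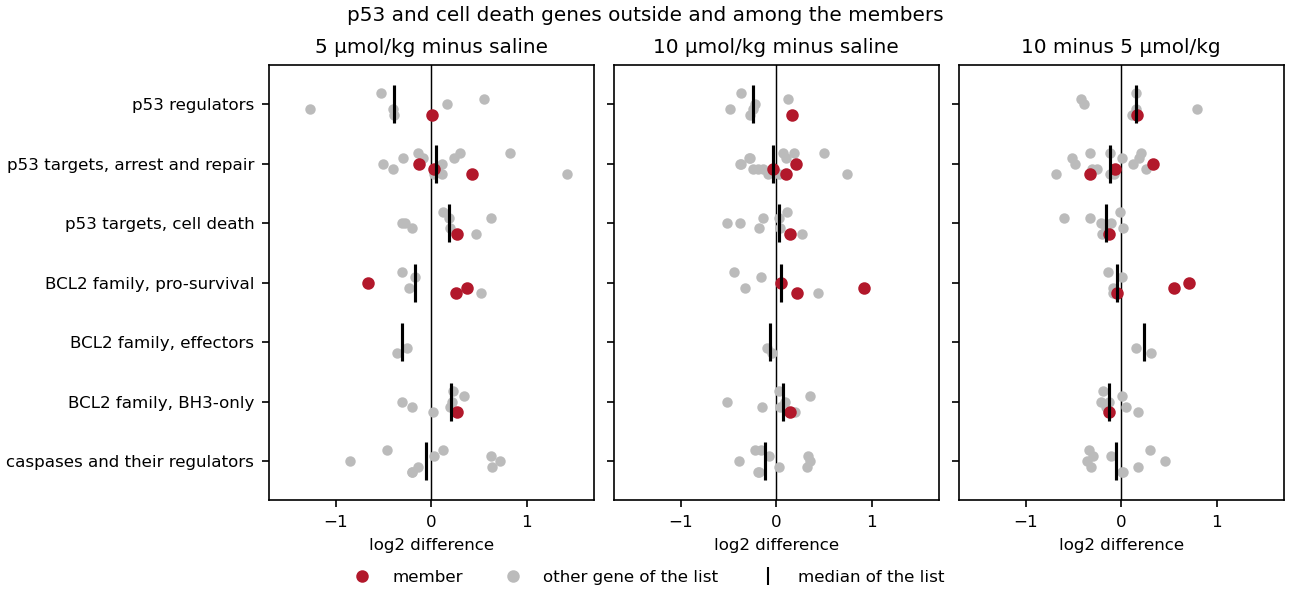
Log2 differences (horizontal axis) of the tested genes of the 7 pathway lists (rows), by the brightest probe of each gene; red points are members, grey points other genes and black bars the median of each list. The list medians lie between −0.40 and 0.21 at 5 µmol/kg and between −0.24 and 0.07 at 10 µmol/kg against saline.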

How the data were processed

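Spleen RNA of 6 samples had been labelled and hybridised to Illumina bead arrays, per the labels' protocols, and groups and replicate numbers came from the sample titles. The intensity of each probe is a mean bead signal, linear in scale, that the authors deposited in a table called not normalized. Its sorted values differed by at most 0.243 units between arrays and its lowest value was −20.15, so it had been background-subtracted and quantile-normalized. Each probe and array also has a deposited detection p-value. Which software made these values was not given in the sources used here. Precision is limited by the number of arrays.

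Values were processed with neqc of limma 3.58.1 in R 4.3.3 (normal and exponential background model, offset of 16, quantiles, log2). The offset makes log2 differences of dim probes understate their change. The 18960 probes detected (p-value under 0.05) on 2 or more arrays entered 1 limma fit with a mean per group, 3 residual and 3.783 prior degrees of freedom, and Benjamini-Hochberg adjustment over all of them at 0.05. Symbols came from the platform annotation (34885 probes with 1 symbol, 18 with several, 10378 with none). Intervals are 95% intervals from the moderated errors. The brightest probe stood for a gene in lists, figures and alternatives.

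Named were all members, listed pathway genes with an unadjusted p under 0.05, the 2 brightest genes of each list, and the 3 genes nearest to Cdkn1a by profile. Other probes of a gene are named where they bear on its values. The members, lists and tests were chosen with earlier results of these data known. Alternatives were other background, offset, filter, normalization, probe and array choices, a replicate block, an acinar covariate and the series matrix, identical for its 45279 probes.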

Additional observations from a re-analysis of the deposited data

How the results depend on the processing

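The depth of a bead array is its signal over background. Probes near the detection limit (7.56 to 10.63 units per array), such as the dim Bcl2 and Bbc3 probes, can say little about a change. Where tested, they still entered the counts and medians of member probes like any other probe. For the other probes, 2 arrays a group set the limit. For the brightest probe of each of 8 genes in 3 comparisons, 18 other settings gave 432 values, none of them called. In 192 of these the setting left the difference itself as it was (within 1e-06), so they say nothing about its direction. Of the 240 that moved, 198 kept their direction and 42 turned, 27 of these on leaving out 1 array. Differences were recomputed leaving out each array in turn. At 5 µmol/kg against saline they ran from −0.062 to 0.92 for Cdkn1a, −0.45 to 0.46 for Mdm2, −0.095 to 0.15 for Ccng1, −0.33 to 0.082 for Sesn1, 0.026 to 0.52 for Bbc3, −0.10 to 0.62 for Bcl2 and −0.072 to 0.81 for Bcl2l1. At 10 µmol/kg against saline they ran from −0.39 to 0.60 for Cdkn1a, −0.29 to 0.63 for Mdm2, −0.55 to 0.48 for Ccng1, −0.0011 to 0.41 for Sesn1, −0.15 to 0.45 for Bbc3, −0.14 to 0.58 for Bcl2 and −0.11 to 0.20 for Mcl1. Between the doses they ran from −0.096 to 0.42 for Mdm2, −0.58 to 0.46 for Ccng1, −0.43 to 0.17 for Bbc3, −0.29 to 0.21 for Bcl2 and −0.14 to 1.23 for Bcl2l1. Mcl1 kept its direction at 5 µmol/kg against saline (−0.81 to −0.52 leaving out arrays, adjusted p 0.294 to 0.999 in limma) and between the doses (0.56 to 0.87, adjusted p 0.466 to 1). Bcl2l1 at 10 µmol/kg against saline also did (0.24 to 1.60 leaving out arrays). So did Cdkn1a (−0.52 to −0.13) and Sesn1 (0.18 to 0.48) between the doses, and Bbc3 at 5 µmol/kg against saline.

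With the acinar level as a covariate, Ccng1 turned to −0.23 and Sesn1 to 0.0069 at 5 µmol/kg against saline, and Mdm2 turned to −0.15, Ccng1 to 0.21 and Bbc3 to 0.10 between the doses. Without a turn, it moved Bbc3 to 0.056, Cdkn1a to 0.19, Mdm2 to 0.31 and Bcl2l1 to 0.83 at 5 µmol/kg against saline, and Bcl2l1 to 0.062 and Cdkn1a to −0.069 between the doses. In a fit of only the 4 arrays with bright acinar genes, added with the data known, Cdkn1a turned to −0.062, Ccng1 to −0.095 and Sesn1 to 0.082 at 5 µmol/kg against saline. In it Cdkn1a turned to −0.33 and Ccng1 to 0.36 at 10 µmol/kg against saline, and Mdm2 to −0.096, Ccng1 to 0.46, Bbc3 to 0.17, Bcl2 to 0.21 and Bcl2l1 to −0.14 between the doses. That fit has 1 residual degree of freedom, from the 5 µmol/kg arrays, assumes that the lone saline and 10 µmol/kg arrays vary like them, and called 662, 518 and 4 probes in the 3 comparisons, with no brightest member probe among them. Over all probes, the count at 10 µmol/kg against saline was 1 without the further background model, with an offset of 1 and with the acinar covariate. Between the doses it was 0 with an offset of 50, with no filter, with detection on all 6 arrays and with 1 probe for each gene, and 0 to 1 leaving out arrays; the cause was not tested. The labels tie replicate numbers to no shared batch, and deviations of same-numbered arrays correlated at −0.26 (5 µmol/kg and saline), 0.56 (10 µmol/kg and saline) and −0.13 (10 and 5 µmol/kg). With the replicate block 0 probes were called in each comparison.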
